A study of Mus musculus with 6 samples.

Results

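Chemokines and their receptors were examined in whole lungs of mouse embryos without Hopx and of wild-type embryos at stage E16.5, late in fetal life. Members were chosen by gene symbol: names that start with Ccl, Cxcl, Ccr, Cxcr or Ackr followed by a digit, together with Xcl1, Xcr1, Cx3cl1 and Cx3cr1. This gave 54 of the 18193 genes that the array measured with a probe set annotated to 1 gene, made up of 33 ligands and 21 receptors. Where a gene had several such probe sets, the one that averaged highest across the lungs stood for it. The Hopx-null group held 3 microdissected lungs of genotype Hopx -/-, and the wild-type group held 3 of genotype Hopx +/+. Both groups were on a mixed strain background and were described as biological replicates, with no treatment given. The labels do not describe the Hopx allele, and they do not say whether lungs were pooled or came from separate litters. Where lungs shared a source, p-values would measure only the spread between these samples.

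Chemokines are small secreted proteins that direct cell migration through receptors coupled to G proteins, and they are named by the spacing of their first cysteines (CC, CXC, XC or CX3C). Some are induced in inflammation, whereas others are made steadily and guide blood cells, vessels and lymphoid tissue during development. Atypical receptors (Ackr genes) bind chemokines without G protein signalling and take them up, which shapes gradients. In the fetal lung, macrophages and other blood cells settle before birth, and epithelium, mesenchyme and endothelium all make some of these ligands. Hopx encodes an atypical homeodomain protein of type I alveolar cells.

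The 6 arrays had nearly the same distributions, with lower quartiles of 4.24 to 4.30 and medians of 6.67 to 6.72 on the log2 scale. Hopx read 4.59 to 4.96 in Hopx-null lungs and 10.41 to 10.96 in wild-type lungs at the probe set that separated them most, and 10.35 to 10.64 in Hopx-null lungs against 12.26 to 12.50 in wild-type lungs at the other. Eif2s3y, a gene of the Y chromosome, was at 2.88 to 3.05 in all Hopx-null lungs, against 3.13, 11.72 and 11.56 in the wild-type lungs. Y-linked signal was thus found in 0 Hopx-null and 2 wild-type lungs, and its part in the results was not tested beyond the fit named with the leading ligands. Markers of lung epithelium, blood endothelium and mesenchyme were above the array median in all lungs (4 of 4 genes in each list). This was also so for 10900 of all 18193 genes. Cartilage markers can come with attached airway. In replicates 1 to 3 they averaged 5.92, 4.84 and 6.50 in Hopx-null lungs and 4.88, 7.97 and 8.44 in wild-type lungs. The 2 highest were the wild-type lungs with Y-linked signal, and the part of cartilage in the results was not tested.

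No chemokine or receptor gene passed the test of Hopx-null against wild-type lungs (limma, Benjamini-Hochberg over 45037 probe sets, threshold 0.05). The smallest adjusted p among the members was 0.878. Over the whole array 2 probe sets passed, both of Hopx (0.00444% of probe sets, or 0.0055% of genes when each gene has 1 probe set). At an unadjusted p under 0.05 there were 7 of 54 members, or 13.0%, against 4.54% of all genes. Of these, 6 had higher values in Hopx-null lungs (2.9% of all genes) and 1 had lower values (1.64% of all genes). The genotypes did not overlap at 9 of 54 members, or 16.7%, against 10.5% of all genes, with 7 higher and 2 lower in Hopx-null lungs. The median log2 difference of the members was -0.02, with 25 higher and 29 lower, against a median of 0.01 over all genes.

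Many family members were read near the floor of the array. Values lay above the array median in all 6 lungs for 15 members, here called bright, and below the lower quartile in all 6 for another 15, here called dim. The remaining 24 lay in between. Among bright members the spread between lungs of 1 genotype had a median SD of 0.27, against 0.13 over all bright genes, and the median half-width of the 95% interval was 0.44. The interval lay within a 2-fold change in either direction for 44 of 54 members, and for 12 of the 15 bright ones. The 44 include all 15 dim members, and the count was 29 of the 39 members that were not dim. Dim members were read near background, and their differences are not interpreted.

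**Figure D1:**
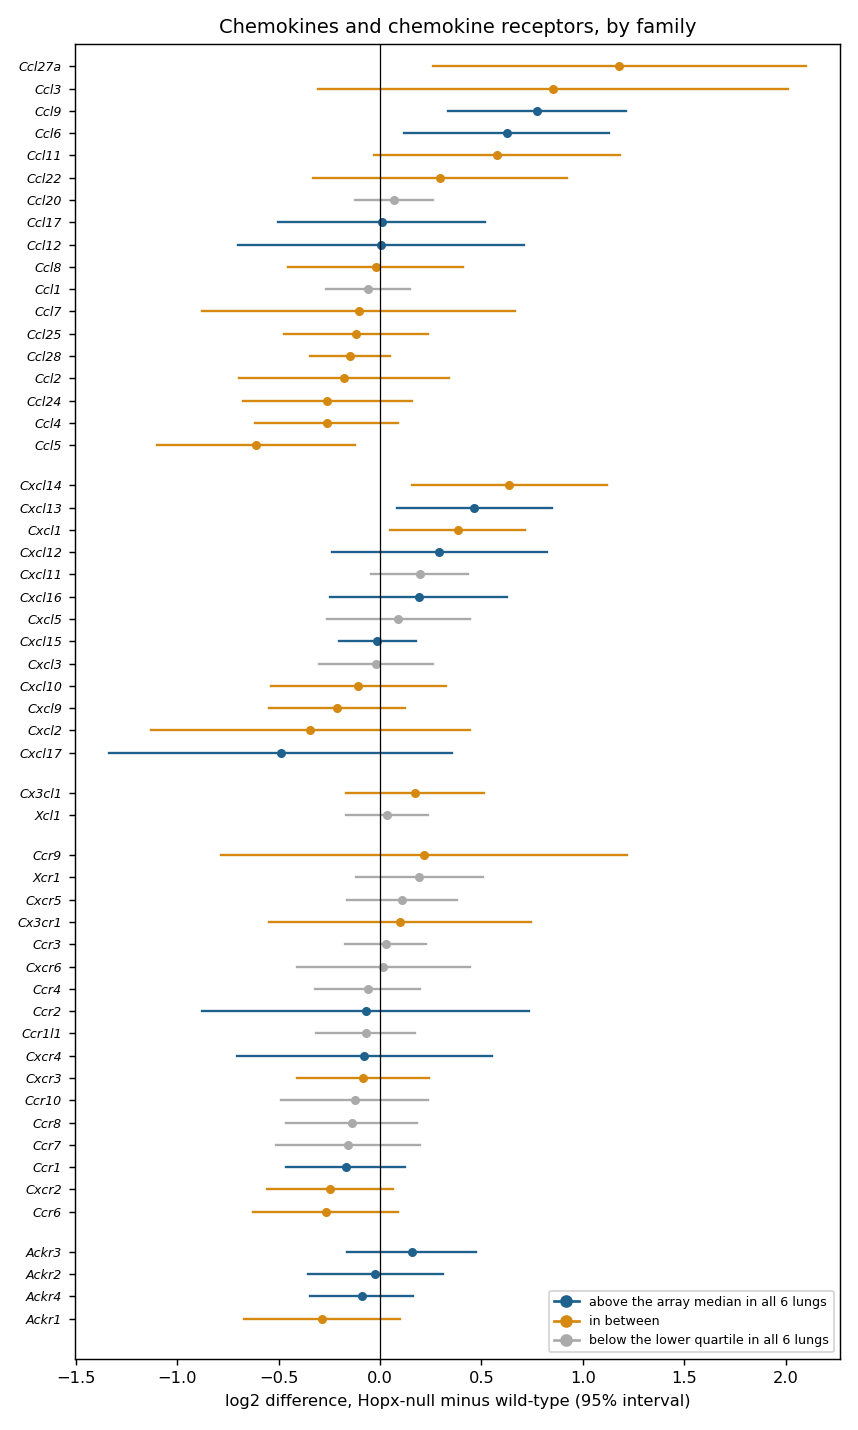
Log2 difference (Hopx-null minus wild-type, horizontal axis) with its 95% interval from limma for each of the 54 members, in blocks for CC ligands, CXC ligands, XC and CX3C ligands, typical receptors and atypical receptors. Colour gives the signal class, and most intervals include 0, with Ccl27a at 1.18 and Ccl5 at -0.61 at the ends.

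Among the 33 ligands, 7 (21.2%) had an unadjusted p under 0.05 in limma, and among the 21 receptors 0 had. The share over all genes was 4.54%, so 0 of 21 is a small count to read from. Dim genes made up 9 of the 21 receptors and 6 of the 33 ligands, and 0 of the 15 dim members had an unadjusted p under 0.05 in limma. The median log2 difference was 0.01 for ligands and -0.07 for receptors, the latter being the value of the dim gene Ccr1l1. A difference between ligands and receptors was not tested. The 7 ligands were Ccl9, Cxcl14, Ccl27a, Ccl5, Ccl6, Cxcl13 and Cxcl1. Their adjusted p was 0.878 in each case (limma, Benjamini-Hochberg), so none is called as different.

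**Figure D2:**
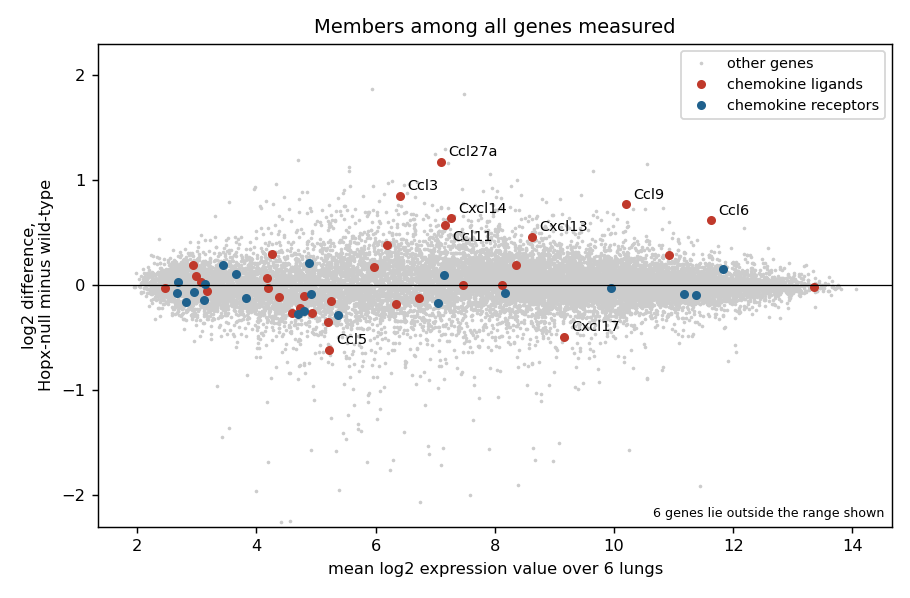
Each dot is a gene, placed by its mean log2 value over 6 lungs (horizontal axis) and its log2 difference, Hopx-null minus wild-type (vertical axis), with ligands in red, receptors in blue and other genes in grey. Ligands such as Ccl9 and Ccl6 lie at 0.77 and 0.62, the receptors lie between -0.29 and 0.22, and 6 genes lie outside the range of 2.3 shown.

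The CC ligands that act on monocytes and macrophages included the member with the smallest unadjusted p in limma, at the probe set that stood for each gene. A further probe set of Cxcl14, given below, had a smaller one. Ccl9, a rodent chemokine made by myeloid cells that signals through Ccr1, had log2 values of 10.16, 10.83 and 10.78 in Hopx-null lungs and 9.74, 9.82 and 9.89 in wild-type lungs, given here and throughout in the order of replicates 1 to 3. All Hopx-null lungs lay above all wild-type lungs, and Hopx-null replicate 1 lay closest to them. Ccl9 averaged 10.59 ± 0.37 in Hopx-null and 9.82 ± 0.07 in wild-type lungs (SD, n = 3 each), a log2 difference of 0.77 (95% interval 0.33 to 1.21) or 1.71-fold, with adjusted p = 0.878 in limma. Its second probe set read 6.80, 7.16 and 7.17 in Hopx-null lungs and 6.37, 6.19 and 6.63 in wild-type lungs, again without overlap, with a log2 difference of 0.65.

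Ccl6, the neighbouring gene on chromosome 11 in the RefSeq order and another myeloid ligand of Ccr1, read 11.65, 11.99 and 12.20 in Hopx-null lungs and 11.19, 11.71 and 11.06 in wild-type lungs. Wild-type replicate 2 lay above Hopx-null replicate 1, so the genotypes overlapped. The means were 11.94 ± 0.28 in Hopx-null and 11.32 ± 0.35 in wild-type lungs (SD, n = 3 each), a log2 difference of 0.62 (95% interval 0.12 to 1.13), with adjusted p = 0.878 in limma. A second Ccl6 probe set differed by 0.53 in the same direction. At all 4 probe sets of these genes the lowest lung was a wild-type one, and Hopx-null replicate 1 was the lowest of its genotype.

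Their upstream sequences are shown because these neighbours differed the same way. The 250 bases before the RefSeq transcription start (GRCm38.p6) are given 5′ to 3′ on the gene's strand, for Ccl9 at chr11:83578637-83578886, minus strand, and for Ccl6 at chr11:83593088-83593337, minus strand. Capitals mark matches to 6 motifs that were searched: the TATA box TATAAA on the gene's strand, and on both strands GAGGAA (the core bound by PU.1, a myeloid regulator), TTGCNNAA (a C/EBP pattern), TGANTCA (AP-1), the interferon-stimulated response element (GAAA repeated after 2 free bases) and the NF-kB consensus.
Ccl9: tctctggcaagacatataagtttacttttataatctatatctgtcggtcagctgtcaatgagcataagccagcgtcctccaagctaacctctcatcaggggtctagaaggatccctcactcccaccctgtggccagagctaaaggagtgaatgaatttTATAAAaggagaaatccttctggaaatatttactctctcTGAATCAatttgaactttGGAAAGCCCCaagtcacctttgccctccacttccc
Ccl6: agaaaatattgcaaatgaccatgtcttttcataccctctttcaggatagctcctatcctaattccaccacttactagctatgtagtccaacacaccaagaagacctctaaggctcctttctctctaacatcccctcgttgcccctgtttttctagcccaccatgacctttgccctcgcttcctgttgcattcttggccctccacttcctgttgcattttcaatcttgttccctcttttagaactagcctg
The Ccl9 window held a TATA box, an AP-1 match and an NF-kB match, none overlapping another, and the Ccl6 window held no match. Among 32851 windows of the same length in the table, 7.59% held the TATA box, 6.75% the AP-1 pattern and 3.9% the NF-kB consensus. Over the 45 windows of the 41 members in the table, 12 held the TATA box, 5 the AP-1 pattern and 9 the NF-kB consensus. The PU.1 core was in 13, the C/EBP pattern in 4 and the interferon-stimulated response element in 2, against 23.3%, 9.56% and 2.98% of all windows. The NF-kB matches were in Ackr2, Ccl20, Ccl9, Ccr3, Ccr6, Cxcl1, Cxcl10, Cxcl2 and Cxcl3. A match describes letters only.

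The other members of this group did not share one direction. Ccl3, a macrophage inflammatory protein and Ccr1 ligand, read 7.24, 6.63 and 6.62 in Hopx-null lungs against 6.55, 6.58 and 4.80 in wild-type lungs. Wild-type replicate 3 stood far below the other lungs. The log2 difference was 0.85 (95% interval -0.30 to 2.01), and 0.27 without that lung. Its neighbour Ccl4, a related macrophage inflammatory protein, read 5.02, 4.88 and 4.51 in Hopx-null lungs and 5.19, 4.99 and 5.02 in wild-type lungs, a log2 difference of -0.26 with overlap. Ccl2, Ccl7 and Ccl12, which recruit monocytes through Ccr2, differed by -0.18, -0.10 and 0.01, and Ccl8, which also acts on Ccr8 in mice, by -0.02. Of the 10 measured monocyte- and macrophage-linked ligands and receptors, 4 were higher and 6 lower in Hopx-null lungs, with a median of -0.05 and none called.

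Ccl11, the eosinophil attractant eotaxin, read 6.95, 7.83 and 7.56 in Hopx-null lungs and 6.66, 7.23 and 6.71 in wild-type lungs. The genotypes overlapped, and the log2 difference was 0.58 (95% interval -0.03 to 1.19). Ccl24, the related ligand of Ccr3, differed by -0.26, and Ccr3 itself was dim.

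Signal from blood cells was measured beside these ligands. The list of 10 macrophage markers, none of them dim, averaged 9.62 to 9.77 in Hopx-null lungs and 9.57 to 9.78 in wild-type lungs, with 6 higher, 4 lower and a median difference of 0.08. Its complement genes C1qa, C1qb and C1qc differed by -0.30, -0.29 and -0.38. The 7 neutrophil markers averaged 9.17 to 9.68 in Hopx-null lungs and 9.20 to 9.44 in wild-type lungs, with 5 higher, 2 lower and a median difference of 0.05. Among them the granule gene Camp differed by 0.54 and Mpo, myeloperoxidase, by -0.46, and Elane was dim. Both lists overlapped between genotypes, and their part in the ligand values was not tested. In whole lungs, fewer cells of a type and less RNA per cell cannot be told apart.

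**Figure D3:**
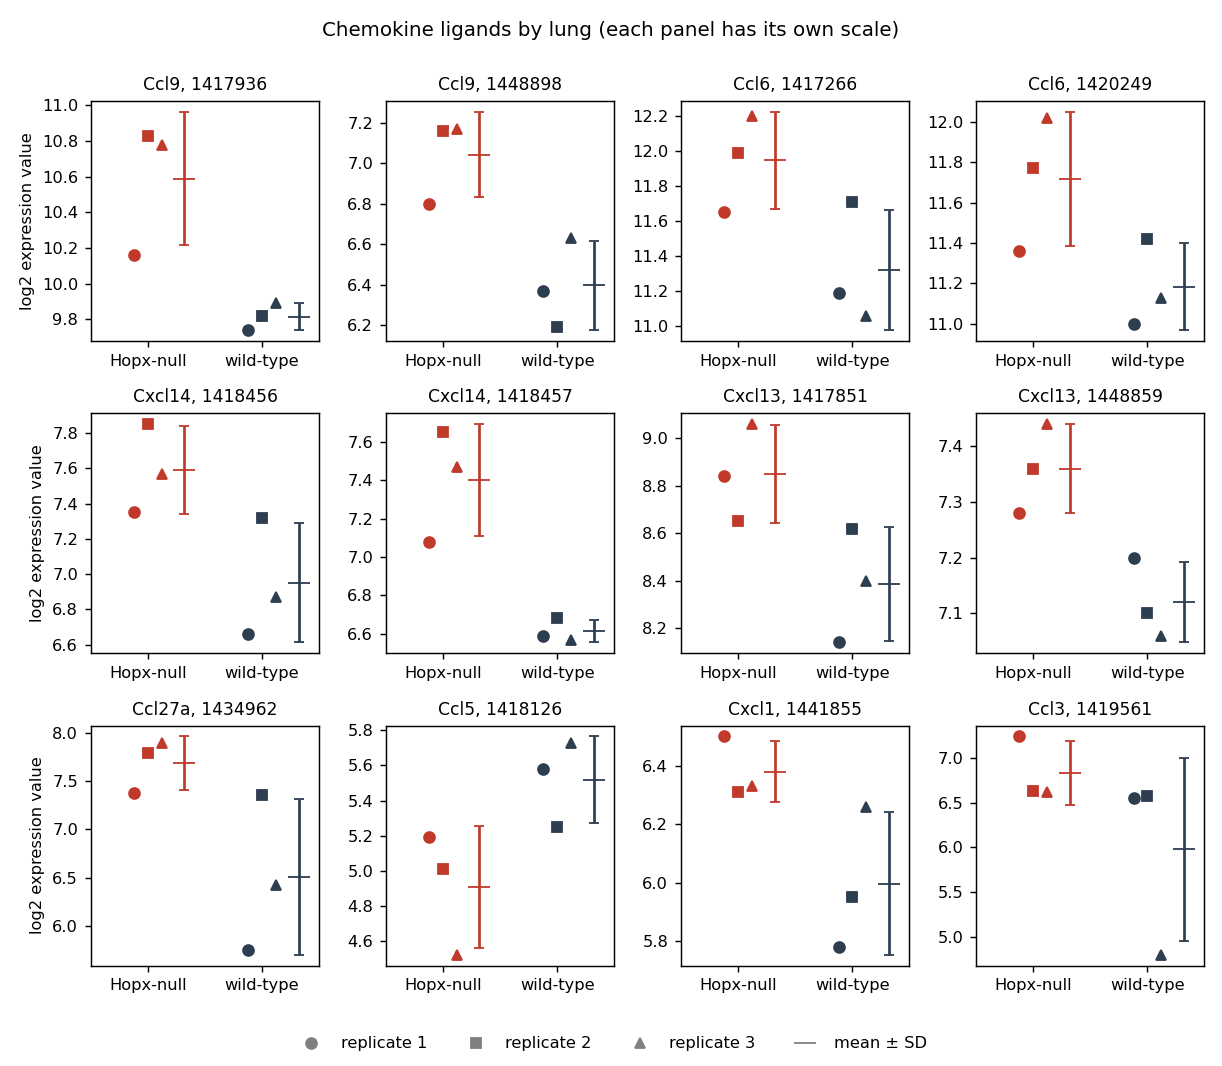
Log2 values by lung for 8 ligands, with Hopx-null lungs in red and wild-type lungs in dark blue, symbols for replicates, and bars for the mean and SD (n = 3). Ccl9, Ccl6, Cxcl14 and Cxcl13 are shown at both of their probe sets; in Ccl9 the Hopx-null lungs read 10.16 to 10.83 and the wild-type lungs 9.74 to 9.89, while Ccl5 runs the other way.

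Ccl27a, a ligand of Ccr10 best known from skin keratinocytes, had the largest difference among the members. It read 7.37, 7.79 and 7.89 in Hopx-null lungs and 5.75, 7.35 and 6.42 in wild-type lungs. The genotypes touched without overlapping, since wild-type replicate 2 lay just below Hopx-null replicate 1, and the wild-type SD of 0.80 exceeded the Hopx-null SD of 0.28. The log2 difference was 1.18 (95% interval 0.26 to 2.10, 2.26-fold) with adjusted p = 0.878 in limma. Leaving out wild-type replicate 1 gave 0.80, and leaving out wild-type replicate 2 gave 1.60.

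Ccl27a lies in a region of chromosome 4 that holds near-identical copies of Ccl27, Ccl21 and Ccl19 genes, so its probes may read more than 1 copy. Probe sets annotated jointly to several of these copies are not members and are given as shared signals. At 2 probe sets shared by 5 Ccl27 genes and predicted genes, the log2 differences were 1.31 and 1.24. At a probe set shared by 9 Ccl21 genes and predicted genes, Hopx-null lungs read 10.57, 10.65 and 10.59 and wild-type lungs 9.70, 10.04 and 10.16, a log2 difference of 0.64 (95% interval 0.32 to 0.95, adjusted p = 0.878 in limma). These 3 shared probe sets did not overlap between genotypes, as was so for 10.5% of all genes. The 2 Ccl27 probe sets are annotated to Ccl27a too, so they are not separate from its own reading. A probe set shared by 10 Ccl19 genes and predicted genes differed by -0.53 with overlap. The 3 lymphatic endothelial markers, a source of Ccl21, averaged 10.28 to 10.57 in Hopx-null lungs and 10.38 to 10.55 in wild-type lungs. Which copy gives these signals was not tested, and Ccr10, the receptor of Ccl27a, was dim.

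Cxcl14, made by epithelia and fibroblasts and an attractant of monocytes, read 7.35, 7.85 and 7.57 in Hopx-null lungs and 6.66, 7.32 and 6.87 in wild-type lungs. Wild-type replicate 2 lay just under the lowest Hopx-null lung. The log2 difference was 0.64 (95% interval 0.16 to 1.12, 1.56-fold), with adjusted p = 0.878 in limma. Its second probe set separated the genotypes more widely, with 7.08, 7.65 and 7.47 in Hopx-null lungs, 6.59, 6.68 and 6.57 in wild-type lungs, and a log2 difference of 0.79.

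Cxcl13, which draws B cells through Cxcr5 and helps form lymphoid tissue, read 8.84, 8.65 and 9.06 in Hopx-null lungs and 8.14, 8.62 and 8.40 in wild-type lungs. Hopx-null replicate 2 and wild-type replicate 2 nearly met. The log2 difference was 0.47 (95% interval 0.08 to 0.85), and 0.24 at the second probe set, with adjusted p = 0.878 in limma at the first. Its receptor Cxcr5 was dim in all lungs.

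The same upstream windows are shown for these 3 ligands, with the motifs and capitals as above: Cxcl14 at chr13:56296552-56296801, minus strand, Cxcl13 at chr5:95956689-95956938, plus strand, and the outermost of 3 RefSeq starts of Ccl27a at chr4:41774177-41774426, minus strand.
Cxcl14: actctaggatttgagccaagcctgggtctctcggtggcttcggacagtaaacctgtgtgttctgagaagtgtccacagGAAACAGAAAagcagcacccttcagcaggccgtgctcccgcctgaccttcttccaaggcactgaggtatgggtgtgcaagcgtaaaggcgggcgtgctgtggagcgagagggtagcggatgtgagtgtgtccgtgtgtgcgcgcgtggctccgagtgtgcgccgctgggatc
Cxcl13: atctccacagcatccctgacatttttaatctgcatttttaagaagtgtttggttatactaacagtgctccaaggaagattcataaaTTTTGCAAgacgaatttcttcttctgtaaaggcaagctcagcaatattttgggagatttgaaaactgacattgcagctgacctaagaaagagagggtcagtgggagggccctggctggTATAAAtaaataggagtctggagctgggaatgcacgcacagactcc
Ccl27a: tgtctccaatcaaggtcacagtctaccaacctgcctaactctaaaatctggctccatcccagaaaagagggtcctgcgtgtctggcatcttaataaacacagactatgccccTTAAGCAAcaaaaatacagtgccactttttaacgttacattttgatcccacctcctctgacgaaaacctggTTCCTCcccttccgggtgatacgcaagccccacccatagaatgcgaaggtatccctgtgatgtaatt
The Cxcl14 window held 1 match to the interferon-stimulated response element, a pattern found in 2.98% of all windows. Among the members in the table, Cxcl10 and Cxcl14 held it. The Cxcl13 window held a TATA box and a C/EBP match, and the Ccl27a window held a C/EBP and a PU.1 match, patterns found in 9.56% and 23.3% of all windows. No motif was shared by all 5 windows shown.

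The leading differences were also read against wild-type replicate 1 alone, the wild-type lung without Y-linked signal, by a fit with Y-linked signal as a covariate that was chosen after seeing the data. In that fit the log2 differences were 0.85 for Ccl9, 0.77 for Ccl6, 0.94 for Cxcl14, 0.72 for Cxcl13, 1.97 for Ccl27a and -0.69 for Ccl5. These 6 kept their sign, but in each of them wild-type replicate 1 already lay on the wild-type side of all Hopx-null lungs. A change of sign was therefore hardly possible, and the kept sign is no separate evidence. Ccl3 differed by 0.27 in that fit and Cxcl2 by -0.89, against 0.85 and -0.34 without the covariate. The wild-type side of this fit rests on a single lung, which also had the lowest cartilage mean of its genotype.

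Interferon-induced chemokines read low in all lungs. Ccl5, an attractant of T cells and monocytes, read 5.19, 5.01 and 4.52 in Hopx-null lungs and 5.58, 5.25 and 5.73 in wild-type lungs. All Hopx-null lungs lay below all wild-type lungs, and the log2 difference was -0.61 (95% interval -1.10 to -0.13), with adjusted p = 0.878 in limma. Cxcl9, a ligand of Cxcr3 on T cells and natural killer cells, read 4.58, 4.90 and 4.42 in Hopx-null lungs and 4.82, 4.74 and 4.96 in wild-type lungs, a log2 difference of -0.21, and -0.09 at its dim second probe set. Cxcl10, another Cxcr3 ligand, read 4.50, 4.47 and 4.03 in Hopx-null lungs and 4.57, 4.14 and 4.61 in wild-type lungs, a difference of -0.11. Both spanned a narrow range near the lower quartile with overlapping genotypes. Cxcl11 was dim at both probe sets, with 2.91, 3.19 and 2.99 in Hopx-null lungs and 2.85, 2.79 and 2.87 in wild-type lungs at the brighter.

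Interferon-stimulated genes of other families were lower in Hopx-null lungs at 12 of 12 measured members, none called, with a median of -0.77. Their mean level was 7.72, 7.57 and 7.36 in Hopx-null lungs, against 8.36, 7.35 and 9.03 in wild-type lungs. Ccl5 and this mean both peaked in wild-type replicate 3, followed by wild-type replicate 1, whereas wild-type replicate 2 was the lowest of all lungs in the mean and not in Ccl5. Genes of the interferon-gamma response averaged 7.50 to 7.74 in Hopx-null lungs and 7.39 to 7.93 in wild-type lungs. The part of interferon-stimulated signal in the Ccl5 values was not tested.

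CXC ligands that draw neutrophils through Cxcr2 gave small and mixed values. Cxcl1 read 6.50, 6.31 and 6.33 in Hopx-null lungs and 5.78, 5.95 and 6.26 in wild-type lungs, without overlap, a log2 difference of 0.38 (95% interval 0.05 to 0.72, adjusted p = 0.878 in limma). Its other probe sets differed by 0.40 and 0.28. Cxcl2 read 5.59, 5.02 and 4.50 in Hopx-null lungs and 5.90, 5.27 and 4.97 in wild-type lungs, which overlapped at a difference of -0.34. Leaving out Hopx-null replicate 1 gave -0.62, and leaving out Hopx-null replicate 3 gave -0.08. Cxcr2 differed by -0.25, and Cxcl3 and Cxcl5 were dim.

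The Cxcl12 axis was bright throughout and gave no called difference. Cxcl12, a mesenchymal ligand that guides vessels and blood progenitors, read 11.24, 10.97 and 11.01 in Hopx-null lungs and 11.09, 10.99 and 10.27 in wild-type lungs. Wild-type replicate 3 stood low, and the log2 difference of 0.29 (95% interval -0.24 to 0.82) was 0.04 without it. Its other probe sets differed by 0.24 and -0.02. Cxcr4, its signalling receptor, read 11.61, 11.18 and 10.62 in Hopx-null lungs and 11.17, 11.50 and 10.97 in wild-type lungs, with a log2 difference of -0.08 (95% interval -0.71 to 0.55). Ackr3, which takes up Cxcl12, read 11.80, 11.93 and 11.96 in Hopx-null lungs and 12.01, 11.57 and 11.65 in wild-type lungs, a log2 difference of 0.15 (95% interval -0.16 to 0.47). At all 3 genes the genotypes overlapped.

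The lung-selective ligand Cxcl15, known as lungkine and made by airway and alveolar epithelium in mice, had the smallest SD over the lungs among the bright members, at the 99.8th percentile of the array, close to the top of its range. It read 13.36, 13.39 and 13.30 in Hopx-null lungs and 13.35, 13.40 and 13.35 in wild-type lungs, with a log2 difference of -0.01 (95% interval -0.20 to 0.18), and 0.13 at its second probe set. The SD over the 6 lungs was 0.04 at the first probe set and 0.11 at the second. Cxcl17, a mucosal ligand, varied more and read 8.31, 8.76 and 9.66 in Hopx-null lungs and 9.33, 9.79 and 9.08 in wild-type lungs. The genotypes overlapped at a log2 difference of -0.49 (95% interval -1.34 to 0.35). Leaving out Hopx-null replicate 1 gave -0.19, and leaving out Hopx-null replicate 3 gave -0.87. Ccl28, another mucosal ligand of Ccr10, did not overlap at its brightest probe set but differed by only -0.15, and a second probe set differed by 0.65 in the other direction. Ccl20, the ligand of Ccr6, was dim. Lung epithelial markers averaged 10.88 to 10.95 in Hopx-null lungs and 10.97 to 11.02 in wild-type lungs, a small gap without overlap whose part in the epithelial ligands was not tested.

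**Figure D4:**
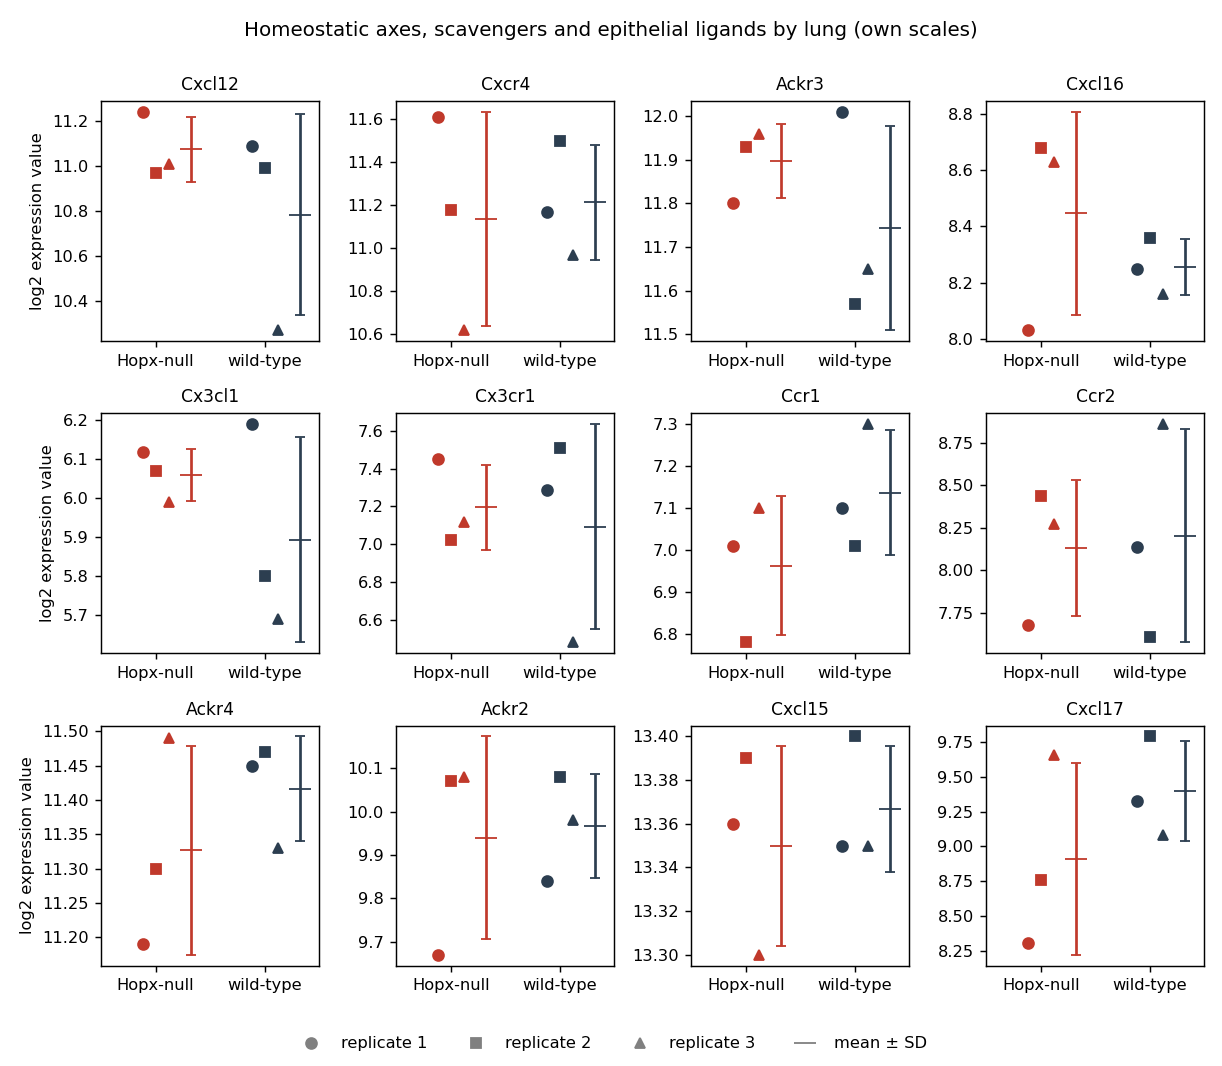
Log2 values by lung for 12 members, from the homeostatic axes, the scavenger receptors and the epithelial ligands, together with the receptors Ccr1 and Ccr2. Hopx-null lungs are in red and wild-type lungs in dark blue, with bars for the mean and SD (n = 3). Each panel has its own scale, from Cxcl15 at 13.30 to 13.40 to Cxcl17 at 8.31 to 9.79, and the genotypes overlap in every panel.

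The other steady-state pairs also overlapped between genotypes. Cxcl16, a transmembrane ligand of Cxcr6, read 8.03, 8.68 and 8.63 in Hopx-null lungs and 8.25, 8.36 and 8.16 in wild-type lungs, and Cxcr6 was dim. Cx3cl1, the fractalkine of epithelium and endothelium, read 6.12, 6.07 and 5.99 in Hopx-null lungs and 6.19, 5.80 and 5.69 in wild-type lungs. Its receptor Cx3cr1, found on monocytes and tissue macrophages, read 7.45, 7.02 and 7.12 in Hopx-null lungs and 7.29, 7.51 and 6.48 in wild-type lungs. The log2 differences were 0.19 for Cxcl16, 0.17 for Cx3cl1 and 0.10 for Cx3cr1. Further probe sets differed by 0.24 for Cxcl16, 0.18 for Cxcr6, -0.11 for Cx3cr1, and -0.04, 0.07 and 0.03 for Cx3cl1.

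Several receptors of lymphocytes read near background. Ccl17 read 6.96, 7.70 and 7.75 in Hopx-null lungs and 7.51, 7.50 and 7.37 in wild-type lungs, a log2 difference of 0.01, and their shared receptor Ccr4 was dim. Ccl22, its fellow ligand, read 4.31, 4.81 and 4.10 in Hopx-null lungs and 4.55, 3.69 and 4.09 in wild-type lungs, a difference of 0.30 near the lower quartile, with 0.09 to 0.52 when 1 lung was left out. Ccl25, the thymus-expressed ligand of Ccr9, read 6.59, 6.62 and 6.82 in Hopx-null lungs and 6.62, 7.10 and 6.66 in wild-type lungs, a log2 difference of -0.12, and -0.05 at its second probe set. Ccr9 itself varied widely, with 5.70, 5.01 and 4.25 in Hopx-null lungs and 4.71, 5.37 and 4.22 in wild-type lungs. Its log2 difference was 0.22, and 0.07, -0.27, 0.04 and -0.11 at 4 further probe sets. The genotypes overlapped at each of these genes. The 6 thymus markers averaged 4.74 to 5.25 in Hopx-null lungs and 4.83 to 5.35 in wild-type lungs, with Ptcra dim. The 5 measured lymphoid markers averaged 5.69 to 5.99 in Hopx-null lungs and 5.75 to 5.90 in wild-type lungs. Ccr7, which guides cells to lymphoid tissue, was dim, as was Xcl1 with its receptor Xcr1 on dendritic cells. Of the 17 measured genes of the homeostatic axes, 12 were higher and 5 lower in Hopx-null lungs, with a median of 0.11 and none called. Over all genes 52.2% were higher. The 17 include 4 dim genes (Cxcr5, Cxcr6, Ccr4 and Ccr7), and the median is the value of Cxcr5.

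Of the 17 typical receptors, 9 were dim and 3 bright. Ccr2, the monocyte receptor, read 7.68, 8.44 and 8.27 in Hopx-null lungs and 8.14, 7.61 and 8.86 in wild-type lungs, so the genotypes interleaved. Its log2 difference was -0.07, and 0.61, -0.03 and -0.07 at the other probe sets, the first of these with an interval of -0.01 to 1.23. Ccr1, the receptor of Ccl9, Ccl6 and Ccl3, read 7.01, 6.78 and 7.10 in Hopx-null lungs and 7.10, 7.01 and 7.30 in wild-type lungs, a log2 difference of -0.17 (95% interval -0.46 to 0.12), and -0.30 at its second probe set. Ccr6, the receptor of Ccl20, read 4.82, 4.48 and 4.38 in Hopx-null lungs and 4.86, 4.98 and 4.64 in wild-type lungs, a log2 difference of -0.27 (95% interval -0.62 to 0.09). Cxcr3 differed by -0.08. No receptor separated the genotypes, 0 of 21 against 10.5% of all genes, which is a small count to read from, and their differences lay between -0.29 and 0.22.

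Scavenger receptors were bright in 3 of 4 cases. Ackr4, which removes Ccl19, Ccl21 and Ccl25, read 11.19, 11.30 and 11.49 in Hopx-null lungs and 11.45, 11.47 and 11.33 in wild-type lungs, a log2 difference of -0.09. Ackr2, which degrades inflammatory CC ligands, read 9.67, 10.07 and 10.08 in Hopx-null lungs and 9.84, 10.08 and 9.98 in wild-type lungs, a difference of -0.02. Ackr1, found on red cells and venules, read 5.18, 5.43 and 5.07 in Hopx-null lungs and 5.39, 5.81 and 5.33 in wild-type lungs, a difference of -0.29 (95% interval -0.67 to 0.10). These 4 receptors overlapped between genotypes.

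Genes that carry the signal from chemokine receptors gave no call. Of 31 measured partners, such as G protein subunits, arrestins, receptor kinases and Rac regulators, 0 passed and 0 had an unadjusted p under 0.05, with 18 higher, 13 lower and a median of 0.02. The genotypes did not overlap at 6 of the 31 partners (19.4%, with 4 higher and 2 lower), against 10.5% of all genes. One was the inhibitory G protein subunit Gnai2, at 12.10 to 12.13 in Hopx-null lungs and 12.06 to 12.09 in wild-type lungs. Its log2 difference was only 0.03. The adaptor Crk differed by -0.22, and Elmo1, which activates Rac with Dock2, differed by 0.37 with overlap. Among 7 related genes outside the naming rule, the platelet chemokines Pf4 and Ppbp differed by -0.05 and -0.12, and megakaryocyte and platelet markers, which include both, averaged 8.10 to 8.42 in Hopx-null lungs and 8.31 to 8.42 in wild-type lungs. Mast cell markers averaged 7.56 to 7.89 in Hopx-null lungs and 7.62 to 8.18 in wild-type lungs. Rarres2, the precursor of the attractant chemerin, differed by 0.25, and its receptor gene Cmklr1 by 0.35, none called.

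Neighbouring genes differed in both directions. On chromosome 11, 14 members were measured, 6 higher and 8 lower, with a median of -0.04. Within its run of Ccl5, Ccl9, Ccl6, Ccl3 and Ccl4 in RefSeq order, the log2 differences were -0.61, 0.77, 0.62, 0.85 and -0.26. On chromosome 5, with the CXC ligands, 4 of 10 members were higher and the median was -0.02. On chromosome 9, with most CC receptors, 6 of 13 were higher and the median was -0.02.

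The extreme values across the family were spread over the lungs. Among the 15 bright members, Hopx-null replicate 1 was the lowest lung for 5 (Ackr4, Ackr2, Cxcl17, Cxcl16 and Ccl17) and the highest for 3 (Cxcr4, Cxcl12 and Ccl12). Hopx-null replicate 3 was the highest for 5, and wild-type replicate 3 was the lowest for 3 and the highest for 2. Hopx-null replicate 1 and wild-type replicate 2 both read high in Cxcr4, Cx3cr1, Ccl12 and Ccr9, which crosses the genotypes.

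**Figure D5:**
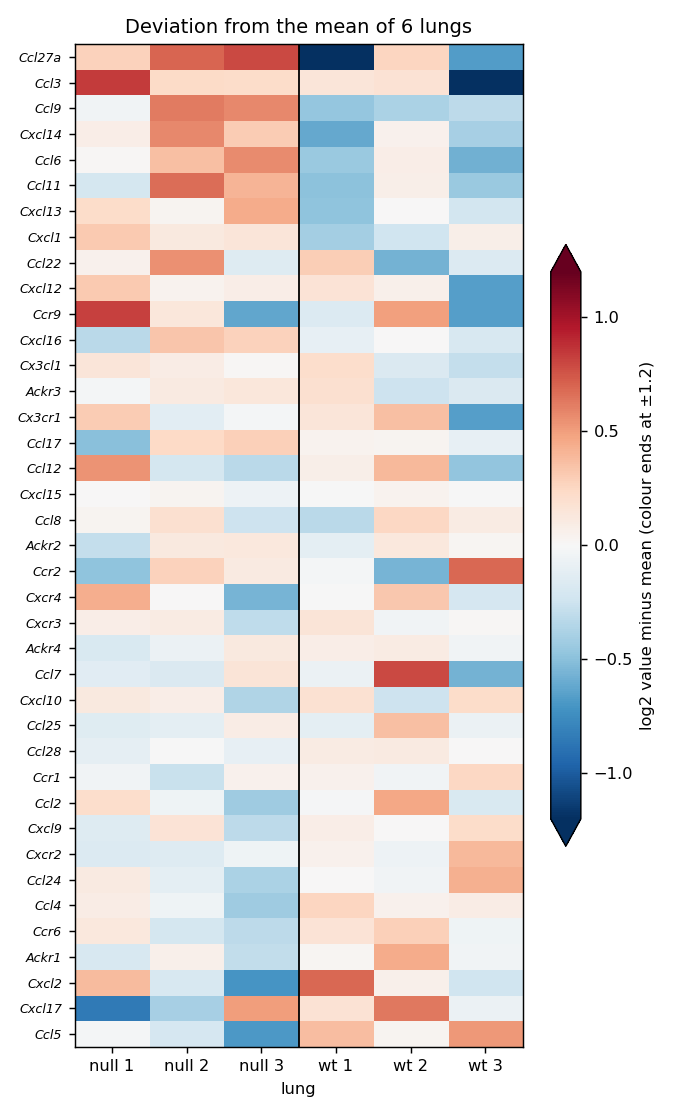
Each row is 1 of the 39 members that are not dim and each column 1 lung (null is Hopx-null, wt is wild-type), with colour for the log2 value minus the mean of the 6 lungs. Rows run from the highest log2 difference (Ccl27a, 1.18) to the lowest (Ccl5, -0.61), and most rows between them hold red and blue cells in both genotypes.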

How the data were processed

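Total RNA of 6 fetal lungs was labelled as biotinylated cRNA from a poly(T) primer, per the labels' protocols, and hybridised to 1 Affymetrix array each. The deposited table holds 1 expression value per probe set, taken here as log2, a base inferred from their range and from RMA, which is named with Partek 6.6 per the submitters' processing notes. Their background option is not given in the sources used here. RMA equalises the arrays, so a shift of most genes is not visible.

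Of 45101 probe sets, 64 controls were left out and 45037 tested without a filter. The annotation named 1 gene for 34945, several for 932 and none for 9160. A gene was represented by its probe set of highest mean, and 20 members had 32 further probe sets. All 54 member symbols matched RefSeq (GRCm38.p6). Levels of different probe sets are not compared.

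limma 3.58.1 in R 4.3.3 (lmFit, eBayes) compared 3 with 3 lungs, with Benjamini-Hochberg adjustment over all probe sets. An exact permutation test could not go below 0.1. The fit was tested on simulated data. The number of arrays limits precision.

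Members and lists were chosen with earlier results of these data known. The rules named the 6 members with the largest difference in each direction, the smallest p or the largest SD. They also named the homeostatic and interferon-induced lists. Per-lung values are given for these, apart from the dim receptors Cxcr5, Cxcr6, Ccr4 and Ccr7, and for further members of each role. Alternatives were repeated normalization, centring, filters, array weights, other variance models, the mean over probe sets, a replicate block, and each lung left out.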

Additional observations from a re-analysis of the deposited data

How the results depend on the processing

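No chemokine or receptor gene was called by limma under any of the 15 other fits. In the main fit, 7 of 54 members (13.0%) had an unadjusted p under 0.05 in limma, against 4.54% of all genes. Over the whole array the 2 calls became 1 with the replicate block, 1 with Y-linked signal as a covariate and 1 to 23 with 1 lung left out (12 when Hopx-null replicate 1 was omitted, 23 when wild-type replicate 1 was), against 2149 probe sets at an unadjusted p under 0.05. The median of the members ranged from -0.065 to 0.03 with 1 lung left out, and was 0.05 over the 20 members above the overall median. Of the 31 members named by the rules, partly by the size of their difference, 18 kept their sign in every fit run. Among the 18 were Ccl9, Ccl6, Cxcl14, Cxcl13, Ccl27a and Ccl5, and the other 13 members did not keep it. Ccl9, Cxcl14, Cxcl13, Ccl27a and Ccl5 did not overlap between genotypes, so leaving out 1 lung could not reverse them. Their kept sign is thus no separate evidence. With Y-linked signal as a covariate, Ackr3 was -0.12, Ccl17 -0.0432, Ccl22 -0.17, Ccl25 0.0652, Cx3cl1 -0.14, Cx3cr1 -0.10 and Cxcl12 -0.0170. With repeated normalization Ccl17 was -0.0149 and Cxcl15 0.0140, with centred arrays Ccl17 was -0.0102 and Cxcr6 -0.0021, and with array weights Cx3cr1 was -0.0080 and Cxcr6 -0.0352. The mean over probe sets gave -0.0113 for Ccr9, -0.0038 for Cx3cr1 and 0.0586 for Cxcl15. With 1 lung left out, the differences ran from -0.13 to 0.26 for Ccl17, -0.20 to 0.0329 for Ccl25, -0.13 to 0.0392 for Ccr4, -0.14 to 0.58 for Ccr9, -0.21 to 0.31 for Cx3cr1, -0.26 to 0.0432 for Cxcl10, -0.0346 to 0.0143 for Cxcl15, -0.32 to 0.18 for Cxcr4 and -0.0808 to 0.20 for Cxcr6. The cause of these sign changes was not tested. Same-numbered lungs of both genotypes did not deviate together (correlations of -0.10, -0.12 and 0.18), so the numbers were not taken as pairs. Signal near background limits the 15 dim members, and 3 lungs a genotype limit the rest.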

Other observations

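The probe sets on chromosome 4 around Ccl27a were read after its values were seen. Among the 50 measured neighbour genes in RefSeq order, with 94 probe sets, 8 probe sets had an unadjusted p under 0.05 in limma, against 2149 of 45037 on the array, and none was called. Pigo, an enzyme of GPI anchor synthesis that lies 7 measured genes away, read 10.74, 11.30 and 11.35 in Hopx-null lungs and 9.58, 10.63 and 9.71 in wild-type lungs at 1 probe set, a log2 difference of 1.16. At that probe set the lungs fell in the same order as those of Ccl27a, the only 1 of the 94 searched to do so. The other Pigo probe sets differed by -0.02 and 0.15. Gm21953, a predicted gene 2 measured genes away, read 4.47, 4.43 and 4.56 in Hopx-null lungs and 3.86, 4.20 and 3.91 in wild-type lungs, a log2 difference of 0.50.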
